A study of Mus musculus with 15 samples.

Results

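The smooth muscle and stomach libraries of a mouse tissue series were compared, 2 of 15 small RNA libraries, chosen by their tissue labels. Each was made from total RNA of a commercial mouse tissue panel, with no treatment named. The other libraries, used for ranks and ranges, include an 11-day, a 15-day and a 17-day embryo. Beyond these embryo days the labels give no strain, age, sex or number of animals. They also do not say from which organ the smooth muscle was taken. The libraries were made by AQ-seq, in which adapters with randomized ends are ligated to size-selected small RNA to lower ligation bias. Both tissues have 1 library, so there was no test of the tissues. Each value is a share of a library's reads, and each 95% interval covers counting error only. The question asked of the comparison was which miRNAs of gut epithelium, muscle and endocrine cells each library holds.

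A miRNA hairpin is cut into strands of its 5p and 3p arms, and the strand that enters an Argonaute protein finds its targets mainly through its seed, bases 2 to 8. As background, miR-192, miR-194 and miR-215 are known from the epithelium of the intestine, and miR-192 and miR-194 also from liver and kidney. miR-143 and miR-145a are transcribed together and are known from smooth muscle cells and other mesenchymal cells. miR-1a and miR-133 are known from heart and skeletal muscle, miR-206 from skeletal muscle, miR-375 from endocrine cells, the miR-200 family from epithelia and miR-205 from stratified epithelium. The wall of the stomach and of the intestine holds thick layers of smooth muscle under an epithelium, and the mouse stomach has a forestomach lined by stratified epithelium beside its glandular part.

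The mature strands that set the libraries apart, and relatives that differ from them by a few bases, are shown first, with the seed in capitals (RefSeq sequences, GRCm38.p6). The first 3 are the most abundant of the names at least 4-fold higher in smooth muscle, and the next 3 have the highest folds on the stomach side.

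miR-194-5p: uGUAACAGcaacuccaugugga

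miR-192-5p: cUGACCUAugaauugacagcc

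miR-215-5p: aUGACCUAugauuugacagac

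miR-205-5p: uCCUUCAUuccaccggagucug

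miR-206-3p: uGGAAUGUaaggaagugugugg

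miR-672-5p: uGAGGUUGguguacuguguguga

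miR-192-5p and miR-215-5p share the seed UGACCUA and differ at 3 of 21 bases, by C1A, A12U and C20A, written as the base of miR-192-5p, its position from the 5′ end and the base of miR-215-5p. The miR-200 family carries the seed AAUACUG or AACACUG, which differ by U4C (miR-200b-3p base, position, miR-200a-3p base). Both kinds are shown because members of 1 locus went different ways.

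miR-200a-3p: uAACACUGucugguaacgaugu

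miR-141-3p: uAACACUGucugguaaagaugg

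miR-200b-3p: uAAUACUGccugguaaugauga

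miR-200c-3p: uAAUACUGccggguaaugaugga

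miR-429-3p: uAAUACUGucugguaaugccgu

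The smooth muscle library held 1728045 reads and the stomach library 922137, the second lowest total of the 15. With a floor of 3 reads, shares down to 0.000174% and 0.000325% could be seen. Reads were listed for 703 names in both libraries, for 175 names in smooth muscle alone and for 110 in stomach alone, and no name listed in smooth muscle alone had more than 9 reads. Ratios were computed for the 364 names with at least 50 reads in both libraries together. Their median ratio of smooth muscle to stomach was 0.796, a log2 value of -0.33, and 36.0% of them lay above 1. Scaling by TMM, by DESeq2 size factors or to the reads outside the gut epithelium names raised every log2 ratio by 0.46, 0.40 or 0.47. Ratios somewhat below 1 therefore changed side with the scaling, and this is said where it happens. The stomach library stood apart in its arm usage. Of 55 hairpins with at least 20 reads in all 15 libraries and a median 5p share of 5 to 95%, stomach had the highest or the lowest 5p share of all libraries for 28, or 50.9%. Testis, with the fewest reads, did so for 15, and smooth muscle for 6.

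Gut epithelium miRNAs were the most abundant list in the smooth muscle sample. The 7 names of the miR-192, miR-194 and miR-215 hairpins took 28.8% of its reads (95% interval 28.7 to 28.9) and 1.30% of stomach reads (1.28 to 1.33), a 22.1-fold difference (21.7 to 22.5). In the other 13 libraries the list took between 0.0416% in lung and 4.27% in liver, so the 2 libraries ranked 1 and 4 of the 15. The smooth muscle miRNAs miR-143 and miR-145a came next with 15.7%, the second highest share of the 15 libraries. The label is thus met by the smooth muscle markers, but the most abundant list was that of gut epithelium, and the sample is called below the library labelled smooth muscle. In these bulk samples more cells of a type and more of its miRNA per cell cannot be told apart.

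**Figure D1:**
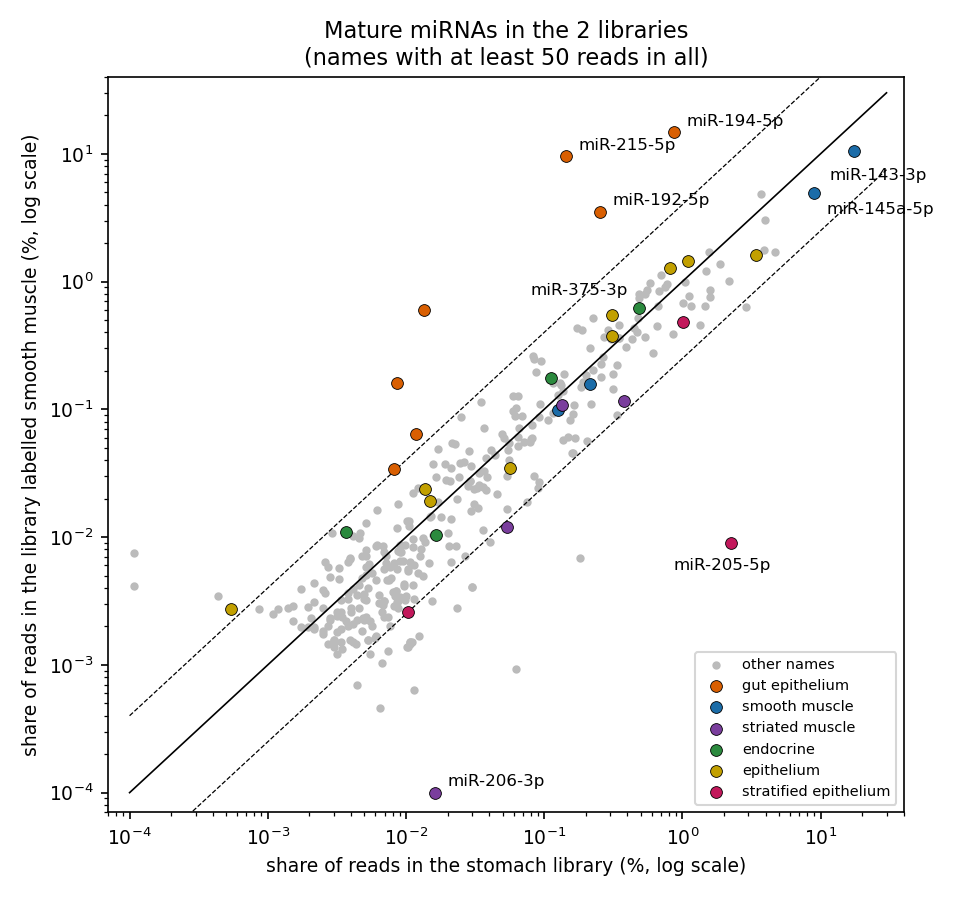
Share of reads (%, log axes) of each mature miRNA name in the stomach library (x) and the library labelled smooth muscle (y), for the 364 names with at least 50 reads in both together. The solid line marks equal shares, the dashed lines a 4-fold difference, and names without a read in 1 library are drawn at 0.0001%. The 7 gut epithelium names lie above the upper dashed line, while miR-205-5p and miR-206-3p lie far below the lower one.

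All 7 gut epithelium names were at least 4-fold higher in the library labelled smooth muscle, where 3.02% of all names tested were. Their median log2 ratio was 4.10, against -0.33 over all names. miR-194-5p was the most abundant miRNA of that library, at 14.8% (255269 reads) against 0.864% in stomach (7965 reads), a 17.1-fold difference (16.7 to 17.5). The next highest value in the series was 2.16% in liver.

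miR-215-5p differed most, at 9.64% (166601 reads) against 0.143% in stomach (1316 reads), or 67.6-fold (64.0 to 71.4). Stomach nevertheless ranked second of the 15 libraries for this miRNA, ahead of the 17-day embryo with 0.0882%, and the median of the other 13 was 0.00206%. miR-192-5p stood at 3.53% against 0.255%, or 13.8-fold (13.3 to 14.4), and for it liver, with 2.06%, lay between the 2 libraries. With miR-192-5p and miR-215-5p counted together by their shared seed, 13.2% of reads in the library labelled smooth muscle and 0.398% in stomach carried the seed UGACCUA, a 33.1-fold difference.

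The 4 hairpins lie at 2 loci, and the strands of the loci did not differ by the same factor. Mir194-1 and Mir215 lie 195 bases apart on the plus strand of chromosome 1 (185313319 to 185313385 and 185313581 to 185313692, GRCm38.p6). GENCODE M21 places both within the antisense gene 2010103J01Rik, Mir194-1 in an intron and Mir215 in an exon, and within an intron of Iars2 on the opposite strand. Mir194-2 and Mir192 lie 115 bases apart on the plus strand of chromosome 19 (6264643 to 6264728 and 6264844 to 6264932), with no other annotated gene over them.

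Strands that can come from the chromosome 1 locus alone were 18.7-fold (14.9 to 23.7, miR-194-1-3p), 44.4-fold (37.2 to 53.4, miR-215-3p) and 67.6-fold (miR-215-5p) higher in the library labelled smooth muscle. Strands of the chromosome 19 locus alone were 4.14-fold (3.25 to 5.32, miR-194-2-3p), 5.39-fold (4.42 to 6.62, miR-192-3p) and 13.8-fold (miR-192-5p) higher. The intervals of the 2 loci do not overlap for these strands. miR-194-5p, which both loci encode, had a ratio of 17.1, between those of the other 5p strands, miR-192-5p and miR-215-5p.

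Within a library the same contrast appears without any scaling. For each read of miR-192-5p there were 2.73 reads of miR-215-5p (2.71 to 2.76) in the library labelled smooth muscle and 0.559 in stomach (0.522 to 0.598). The other 13 libraries ranged up to 0.596, and their median was 0.0585. The quotient of miR-194-1-3p to miR-194-2-3p was 4.70 (4.29 to 5.14) in the library labelled smooth muscle and 1.04 (0.749 to 1.44) in stomach, from 79 and 76 reads. miR-192-5p and miR-215-5p differ at 3 bases only, and how reads that match several names were counted is not given in the sources used here.

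**Figure D2:**
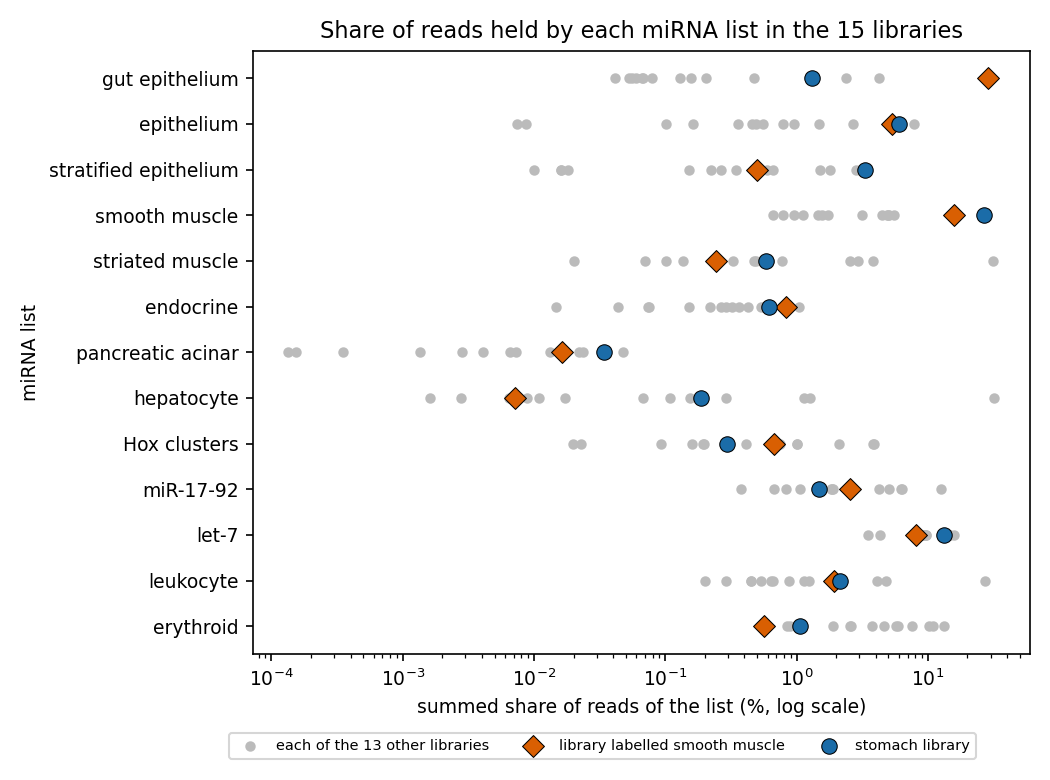
Summed share of reads (%, log axis) of 13 miRNA lists in the library labelled smooth muscle (diamonds), the stomach library (blue circles) and each of the 13 other libraries (grey points). Gut epithelium miRNAs reach 28.8% in the library labelled smooth muscle, and the smooth muscle list is highest in stomach (26.8%) and next highest in the library labelled smooth muscle (15.7%). Salivary gland had no read of the pancreatic acinar list and has no point there.

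The smooth muscle miRNAs took a larger share in stomach than in the library that carries the smooth muscle label. The list of miR-143 and miR-145a strands held 26.8% of stomach reads (26.7 to 26.9) and 15.7% of the other library (15.6 to 15.7), a 1.71-fold difference (1.70 to 1.72). miR-143-3p stood at 17.5% in stomach (161120 reads) and 10.5% in the library labelled smooth muscle (182044 reads), and miR-145a-5p at 9.02% and 4.90%. These were the 2 highest values of the series for both miRNAs. The next highest library was testis, with 4.07% of miR-143-3p and 1.39% of miR-145a-5p.

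None of the 4 strands was 4-fold apart. Their ratios of smooth muscle to stomach ran from 0.543 for miR-145a-5p to 0.782 for miR-143-5p. Part of this distance follows from the total. Among reads outside the gut epithelium names, the list held 22.0% in the library labelled smooth muscle and 27.2% in stomach, or 1.23 times as much in stomach (1.23 to 1.24). miR-143-5p and miR-145a-3p, the rarer strands of the pair, moved to the side of the library labelled smooth muscle with TMM and without the gut epithelium names. With DESeq2 size factors miR-143-5p did so too, while miR-145a-3p kept a log2 ratio of -0.0248. The quotient of miR-143-3p to miR-145a-5p was 2.15 (2.13 to 2.17) in the library labelled smooth muscle and 1.94 (1.92 to 1.95) in stomach. Other libraries had 1.98 to 5.11, so stomach had the lowest quotient of the 15 libraries and the library labelled smooth muscle a low one.

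miRNAs of heart and skeletal muscle were rare in both libraries. The list of 16 names took 0.242% of the library labelled smooth muscle (0.235 to 0.249) and 0.589% of stomach (0.574 to 0.605), against 31.2% in heart. It ranked 11 and 7 among the 15 libraries. Of the 16 names, 4 had at least 50 reads in both together, and 2 of these, miR-206-3p and miR-133b-3p, were at least 4-fold higher in stomach, where 6.87% of all names were.

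miR-206-3p, the skeletal muscle strand, had 149 reads in stomach, or 0.0162%, and 0 in the library labelled smooth muscle. Counting error allows up to 0.000213% there. Set to the floor of 3 reads, it was 93.1-fold higher in stomach, and the counting interval of its ratio reached up to 0.0134. Spleen also had no read, heart had 2, and the 15-day embryo had the most, at 0.938%. In stomach there were 0.120 reads of miR-206-3p for each read of miR-1a-3p (0.100 to 0.142), and the other 13 libraries ranged from 0 to 1.18 in the 15-day embryo, with a median of 0.0535. With under 200 reads it falls outside the rule for named miRNAs and was chosen after its values were seen, as were the cardiac strands given next.

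miR-133b-3p, whose hairpin lies 3686 bases from Mir206 on chromosome 1, had 209 reads against 496 and was 4.45-fold higher in stomach (3.78 to 5.25). miR-133a-3p was 0.117% in the library labelled smooth muscle and 0.381% in stomach, a ratio of 0.307. miR-1a-3p, at 0.109% and 0.135%, had a ratio of 0.807, and this ratio passed 1 with TMM, with DESeq2 size factors and without the gut epithelium names. The cardiac strands miR-208a-3p and miR-499-5p had 8 and 28 reads in the library labelled smooth muscle and 1 and 3 in stomach, too few for a comparison. The ratio thus ran from 0.807 for miR-1a-3p to no read at all for the skeletal strand miR-206-3p. Between them lay miR-133a-3p and miR-133b-3p, which like miR-1a-3p are known from heart and skeletal muscle.

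Both libraries held endocrine miRNAs, with a somewhat larger share in the library labelled smooth muscle. miR-375-3p took 0.625% of the library labelled smooth muscle (10796 reads) and 0.484% of stomach (4466 reads), a ratio of 1.29. Salivary gland alone had more, with 0.930%, and the median of the other 13 libraries was 0.0201%. miR-7a-5p, a second miRNA of endocrine and neural cells, stood at 0.176% and 0.113%, a ratio of 1.57. For each read of miR-375-3p there were 0.282 reads of miR-7a-5p (0.271 to 0.294) in the library labelled smooth muscle and 0.232 (0.217 to 0.249) in stomach, where the median of the others was 5.46. The others ranged from 0.103 in salivary gland to 69.25 in heart, and testis, with 0.327, was close to the 2 libraries.

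Of the 7 names of the endocrine list, 4 had at least 50 reads, none was 4-fold apart, and their median log2 ratio was 0.51. miR-7b-5p had a ratio of 0.625 and miR-7a-1-3p one of 2.95, from 188 and 34 reads. The list as a whole took 0.823% against 0.619%, a ratio of 1.33 (1.29 to 1.37), which ranked 2 and 3 among the 15 libraries. Among reads outside the gut epithelium names it held 1.16% against 0.627%, a ratio of 1.84 (1.79 to 1.90). The pancreatic miRNAs miR-216a, miR-216b and miR-217 were rarer, with 280 reads or 0.0162% in the library labelled smooth muscle and 313 reads or 0.0339% in stomach. Spleen had the highest sum, 0.0476%, and the median of the other 13 libraries was 0.00409%. For single strands stomach ranked 1 of the 15 libraries, with 0.0106% of miR-216b-5p (0.00863 to 0.0130) and 0.0132% of miR-217-5p (0.0110 to 0.0158), where spleen had 0.00936% and 0.0119%. Those spleen values lie within the counting intervals of stomach.

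**Figure D3:**
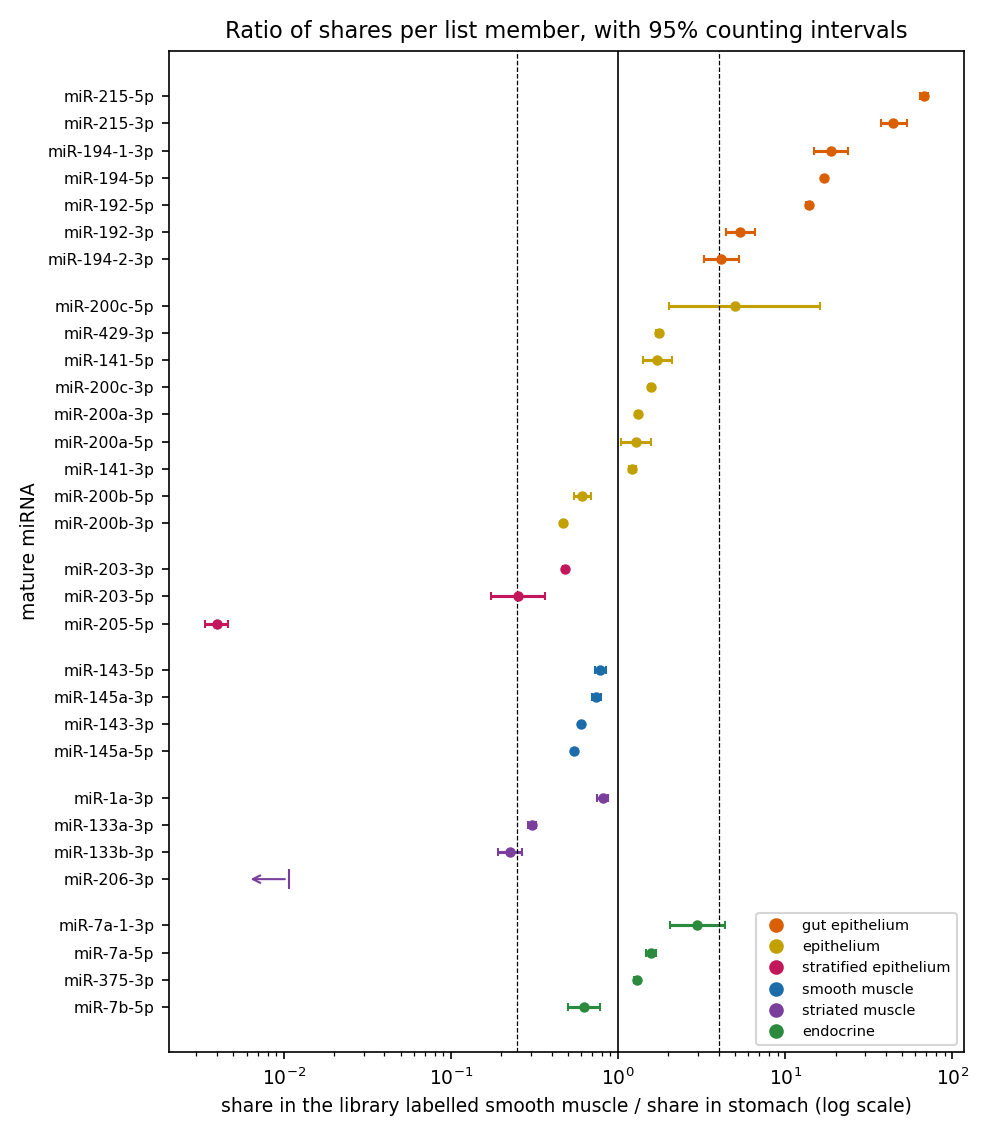
Ratio of the share in the library labelled smooth muscle to the share in stomach (log axis) for members of 6 lists with at least 50 reads in both libraries together. Bars are 95% counting intervals, dashed lines mark 4-fold, and the arrow marks miR-206-3p, which had 0 reads in the library labelled smooth muscle. The gut epithelium members lie between 4.14 and 67.6, and the smooth muscle members between 0.543 and 0.782.

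The miR-200 family, common to epithelia, was abundant in both libraries, with 5.34% of the library labelled smooth muscle and 6.06% of stomach. Only salivary gland, with 7.84%, had more. The direction of this small difference was reversed with TMM, with DESeq2 size factors and among reads outside the gut epithelium names, where the ratio of smooth muscle to stomach was 1.22 (1.21 to 1.23). Of its 10 names, 9 had at least 50 reads and 1 was 4-fold apart, the rare miR-200c-5p, from 47 and 5 reads.

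Members of the family went different ways. miR-200b-3p stood at 1.61% in the library labelled smooth muscle and 3.43% in stomach, a ratio of 0.469, and stomach had the highest value of the series. The other strands of the same locus on chromosome 4 had ratios above 1, namely 1.31 for miR-200a-3p and 1.75 for miR-429-3p. Mir200b and Mir200a lie 695 bases apart there and Mir200a and Mir429 908, on the minus strand in introns of Ttll10. At the second locus, on chromosome 6, miR-200c-3p had 1.57 and miR-141-3p had 1.22.

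By seed, AAUACUG of miR-200b-3p, miR-200c-3p and miR-429-3p had a ratio of 0.754, which passes 1 with TMM scaling (a shift of 1.38-fold) and without the gut epithelium names (1.39-fold). The seed AACACUG of miR-200a-3p and miR-141-3p had 1.29. In stomach there were 3.12 reads of miR-200b-3p for each of miR-200a-3p (3.05 to 3.19), against 1.12 (1.10 to 1.13) in the library labelled smooth muscle and 0.463 to 1.77 in the other 13. The stomach library was thus the one that departed from the rest. miR-200b-5p also had a ratio under 1 (0.610), so the difference was not confined to the 3p strand.

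Of the stratified epithelium miRNAs, miR-205-5p set stomach apart. miR-205-5p took 2.26% of stomach (20885 reads) and 0.00903% of the library labelled smooth muscle (156 reads), a ratio of 0.00399 (0.00338 to 0.00467) or a 251-fold difference. It was the largest of all names with reads in both libraries. Stomach was the highest of the 15 libraries, ahead of eye with 1.70%, and the library labelled smooth muscle ranked 10. miR-203-3p, which keratinocytes also express, was 1.01% in stomach and 0.486% in the other library, a ratio of 0.480. Both hairpins hence favoured stomach, but by very different factors. For miR-203-3p the share in the 17-day embryo exceeded that in stomach. Outside the embryos, only stomach exceeded the library labelled smooth muscle in this miRNA. Mir205 lies on the minus strand of chromosome 1 (193507463 to 193507530) in an exon of the long noncoding RNA 4631405K08Rik.

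miRNAs of the Hox gene clusters, which mark position along the body axis, were higher in the library labelled smooth muscle, at 0.671% against 0.297%, a ratio of 2.26 (2.17 to 2.36). Of 11 names, 5 had at least 50 reads, and 1 of these was 4-fold higher, where 3.02% of all names were. This was miR-196a-5p, made from copies in the Hoxb and Hoxc clusters, with 130 reads against 1, a ratio of 69.4 with a counting interval of 12.2 to 2761. Its share of 0.00752% ranked 7 of the 15 libraries, and the 11-day embryo had 0.175%. miR-10a-5p was 0.519% against 0.225% (ratio 2.30) and miR-10b-5p 0.128% against 0.0600% (ratio 2.13). These more abundant Hox miRNAs thus differed about as much as each other. miR-615-3p, with 148 and 63 reads, had a ratio of 1.25, and its counting interval of 0.927 to 1.71 held equal shares.

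miRNAs of the miR-17 clusters, linked to cell proliferation, were also higher in the library labelled smooth muscle, at 2.54% against 1.48%, a ratio of 1.71 (1.68 to 1.75). Of 14 names 13 had at least 50 reads, 11 of them with a ratio above 1, where 36.0% of all tested names were. None was 4-fold apart, against 9.89% of all names. miR-18a-5p had a ratio of 3.49, miR-19a-3p 3.30, miR-17-5p 2.93, miR-20a-5p 2.53 and miR-19b-3p 2.52. Their hairpins lie in exons of the host transcript Mir17hg on chromosome 14, and miR-19b-3p also comes from Mir19b-2 on chromosome X. miR-92a-3p, from the end of the same cluster and likewise from a copy on chromosome X, had 1.27, and the passenger strand miR-17-3p had 0.883 and changed side with the scaling.

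The let-7 family divided. It took 8.06% of the library labelled smooth muscle and 13.1% of stomach, but its 9 members had ratios from 0.364 to 2.35. let-7b-5p stood at 1.70% against 4.67% (ratio 0.364) and let-7c-5p at 1.77% against 3.89% (ratio 0.456). let-7f-5p stood at 1.12% against 0.696% (ratio 1.60), let-7g-5p had 1.65 and miR-98-5p 2.35. Members of 1 seed family and nearly the same sequence therefore lay on both sides.

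These strands are alike but for a few bases, shown here for the extreme pair of high abundance, which differs by G12A, G17A and G19A (let-7b-5p base, position, let-7f-5p base).

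let-7b-5p: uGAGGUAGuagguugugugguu

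let-7f-5p: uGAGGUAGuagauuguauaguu

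In stomach there were 6.72 reads of let-7b-5p for each read of let-7f-5p (6.54 to 6.89), in the library labelled smooth muscle 1.52 (1.49 to 1.55), and in the other 13 libraries 0.350 to 1.25. The GC content of the strand was 45.5% for let-7b-5p and 31.8% for let-7f-5p and miR-98-5p. Members of equal GC content lay on both sides of equal shares. At 40.9%, let-7c-5p had a ratio of 0.456, let-7d-5p 0.674, let-7e-5p 0.662 and let-7i-5p 1.33. At 36.4%, let-7a-5p had 0.740, which changed side with the scaling, and let-7g-5p 1.65. Over the 312 tested names with a RefSeq sequence (85.7%), those with a GC content up to the median had a median log2 ratio of -0.09 and the others one of -0.48, with a Spearman rho of -0.19 across names that share both libraries. In the miR-200 family, miR-200b-3p had the lowest ratio and the lowest GC content, 36.4%. The strands miR-200a-3p, miR-141-3p and miR-429-3p had 40.9% and miR-200c-3p 43.5%. The part of base composition in the let-7 and miR-200b values was not tested.

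**Figure D4:**
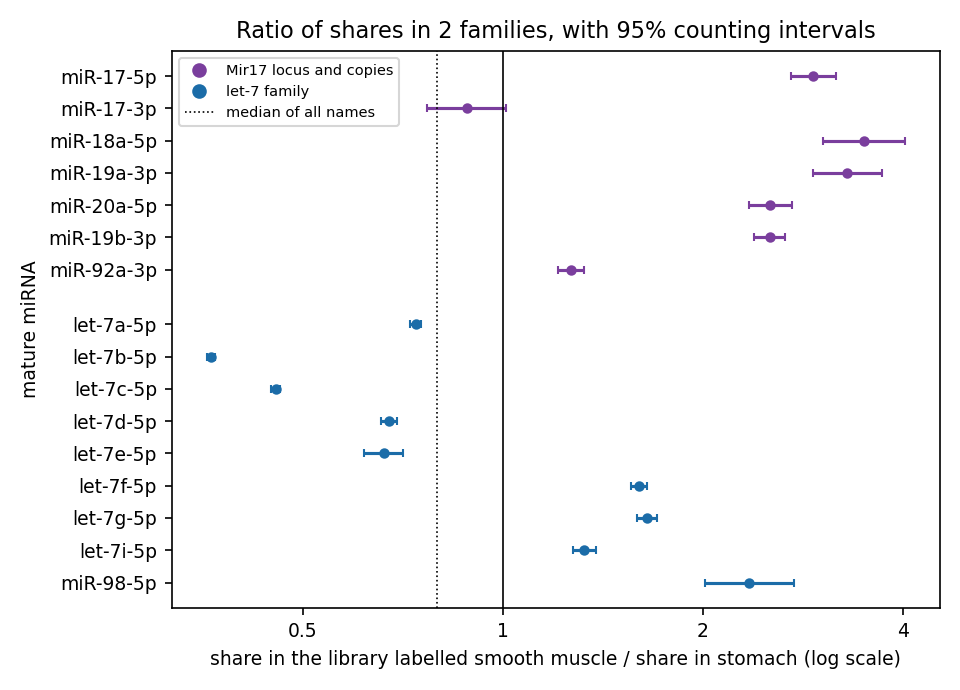
Ratio of the share in the library labelled smooth muscle to the share in stomach (log axis) for strands of the Mir17 locus and its copies and for the let-7 family, with 95% counting intervals. The dotted line marks the median ratio of all tested names, 0.796. The let-7 members spread from 0.364 to 2.35, on both sides of equal shares.

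Leukocyte miRNAs had similar sums in both libraries, and erythroid miRNAs were higher in stomach. The leukocyte list took 1.93% of the library labelled smooth muscle and 2.14% of stomach, against 27.1% in spleen, and its direction changed with TMM, with DESeq2 size factors and without the gut epithelium names. miR-142a-3p, made in all blood cell lineages of bone marrow origin, stood at 0.911% and 0.746%, while the lymphocyte miR-150-5p stood at 0.275% and 0.614%, a ratio of 0.447. Erythroid miRNAs took 0.563% and 1.05%, the lowest value of the series in the library labelled smooth muscle. These sums may hold some reads more than once. miR-486a-5p and miR-486b-5p had 781 and 780 reads in the library labelled smooth muscle and 1483 and 1476 in stomach. Among the erythroid miRNAs miR-451a had 0.449% against 0.651%. miR-144-3p, with 324 and 695 reads, was 4.02-fold higher in stomach, a ratio of 0.249 (0.217 to 0.284). The other strand of its hairpin, miR-144-5p, had 68 and 38 reads and a ratio of 0.955, whose counting interval of 0.633 to 1.46 held equal shares.

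Hepatocyte miR-122-5p was 26.8-fold higher in stomach (22.2 to 32.6), with 1688 reads or 0.183% against 118 reads or 0.00683%. Liver held 31.2%, and stomach ranked 5 of the 15 libraries. Neither value approaches that of liver, and the part of RNA from other tissue was not tested.

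Over all names, 11 of 364 were at least 4-fold higher in the library labelled smooth muscle (3.02%) and 25 in stomach (6.87%), together 36 (9.89%). The larger number on the stomach side depended on the scaling: the counts were 18 and 19 with TMM and 19 and 19 without the gut epithelium names in the total. Of the 11, 7 were the gut epithelium names. The 4 others, named after their values were seen, were miR-196a-5p, miR-200c-5p, miR-301b-3p (71 reads against 1) and miR-6538 (60 against 4). The gut epithelium names were the only ones of the 11 with over 130 reads in the library labelled smooth muscle.

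Of the 25, 9 belong to the miR-466 and miR-669 families. Together with miR-297 and miR-467, these families had 15 tested names, where 6.87% of all tested names were called on this side. They are repeated hairpins whose names share sequence, so the 9 are not separate results. miR-669a-3p and miR-669o-3p had identical counts in all libraries. miR-466a-3p and miR-466e-3p both had 26 reads in the library labelled smooth muscle and 99 in stomach. Beyond miR-205-5p, miR-206-3p and miR-122-5p, stomach had more of miR-672-5p, with 578 reads against 16, or 67.7-fold (41.3 to 119). Its hairpin lies in an intron of Nexmif on chromosome X, and its 0.0627% in stomach was the highest of the series. miR-125b-5p was the most abundant name among the 25, at 2.89% in stomach and 0.633% in the library labelled smooth muscle, or 4.56-fold (4.46 to 4.66). miR-676-3p, from an intron of Eda, was 4.41-fold higher in stomach, and miR-6969-3p, with 216 reads against 48, was 8.43-fold higher (6.14 to 11.8).

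miR-6969-3p was rare outside stomach, which had 0.0234%. The library labelled smooth muscle ranked second with 0.00278% (48 reads), near eye with 0.00185% (47 reads) and spleen with 0.00184% (41 reads). No other library had more than 3 reads of it.

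The most abundant miRNAs of the libraries overlapped. Their 10 leading names held 56.4% of reads in the library labelled smooth muscle and 53.5% in stomach, and 6 names were among the 10 of both, namely miR-143-3p, miR-145a-5p, miR-21a-5p, miR-26a-5p, let-7c-5p and let-7b-5p. miR-21a-5p stood at 4.87% and 3.71% and miR-26a-5p at 3.01% and 3.97%, the latter changing side with the scaling. Apart from these the 10 of stomach held miR-200b-3p, miR-125b-5p, miR-205-5p and miR-24-3p (2.17% against 1.01%), and those of the library labelled smooth muscle held miR-194-5p, miR-215-5p, miR-192-5p and miR-29a-3p (1.72% against 1.56%). Across all 1558 names the log2 CPM values of the 2 libraries had a Pearson r of 0.960, the highest value of either library with any other. The next for the library labelled smooth muscle were salivary gland (0.938) and kidney (0.931). These are descriptions over names of the same libraries, and depth and names without reads enter them.

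Arm usage was alike for most hairpins. Of 209 hairpins with at least 20 reads in both libraries, the 99% intervals of the 5p share were apart for 24 (11.5%), and for 5 of them (2.39%) the shares differed by at least 10 points. The median difference was 1.15 points. The 5p arm led in both libraries for 103 hairpins and the 3p arm for 93, while 12 were undecided in at least 1 library. Only miR-423 had opposite leading arms by this rule, with a 5p share of 46.4% (44.8 to 47.9) in the library labelled smooth muscle and 59.1% (56.6 to 61.7) in stomach. For this hairpin the other 13 libraries ran from 39.5% in the 17-day embryo to 59.0% in lung, with a median of 50.7%.

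**Figure D5:**
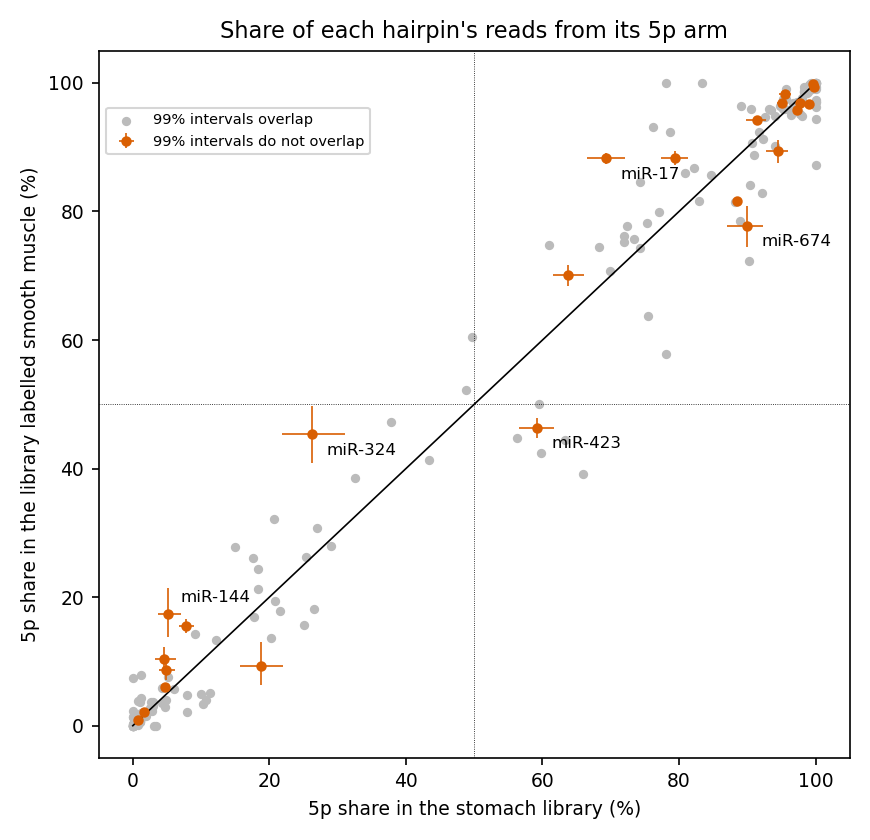
Share of each hairpin's reads that come from its 5p arm, in stomach (x) and in the library labelled smooth muscle (y), for 209 hairpins with at least 20 reads in both. Orange points are the 24 hairpins whose 99% intervals do not overlap, with bars for their 95% intervals, and the 5 named ones differ by at least 10 points. Most points lie near the line of equal shares.

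miR-324, the hairpin for which arm choice was studied in the series, had 45.3% 5p (40.9 to 49.8, 505 reads) in the library labelled smooth muscle and 26.3% (21.9 to 31.1, 369 reads) in stomach, a difference of 19.1 points. miR-17 differed by 18.9 points, with 88.3% (87.3 to 89.2) against 69.4% (66.6 to 72.1). The other 13 libraries lay between 85.1% and 91.4% for miR-17, so that stomach was the one apart. Its paralogue miR-106b showed the same order, with 88.4% against 79.4%, and 83.5% to 94.1% elsewhere. miR-674 had 77.8% against 89.9% and miR-144 had 17.3% against 5.18%.

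The next largest differences among these 24 were 9.48 points for miR-193a, 7.70 for miR-140, 6.90 for let-7d and 6.24 for miR-151. Over the 10 hairpins with the largest differences among the 24 whose 99% intervals were apart, stomach had the highest or lowest 5p share of all 15 libraries for miR-324, miR-17, miR-423, miR-674, miR-106b, miR-140 and miR-151. The library labelled smooth muscle was at an end for let-7d alone. These 10 were chosen for their difference, and stomach was at an end for 50.9% of the 55 hairpins described above, so the count says little of these hairpins in particular.

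The hairpins of the marker miRNAs hardly changed their arms. miR-215 had a 5p share of 94.2% (94.1 to 94.3) in the library labelled smooth muscle and 91.4% (89.8 to 92.8) in stomach, and miR-192 had 98.2% and 95.6%. miR-143 gave 0.932% and 0.720% from its 5p arm, miR-145a 96.9% and 97.7%, and miR-375 0.0278% and 0.0224%, the last from 3 and 1 reads. For miR-215, miR-192, miR-143 and miR-145a the 99% intervals were apart at these depths, with differences of at most 2.78 points. miR-194 could not be given a share, since its 5p name stands for both hairpins.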

How the data were processed

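Small RNA of 15 mouse tissues or stages was sequenced, 1 library each, and the smooth muscle and stomach libraries were compared. The unit of the deposited values is a whole-number count of reads for each mature miRNA, and names not listed were taken as 0. The submitters' processing notes name bcl2fastq 1.8.4, cutadapt, BWA, bedtools and the build mm10. Not given in the sources used here are the options of these tools, the miRNA annotation release and how reads matching several names were counted.

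Counts were divided by all reads of the library. Ratios of shares were given Clopper-Pearson 95% intervals from the split of a name's reads over both libraries (scipy 1.17.1), and a name with 0 reads was set to a floor of 3. Names with at least 50 reads in both libraries together were compared, with a threshold of 4-fold. The 5p share is the 5p reads over the reads of both arms, for hairpins with at least 20 reads in both libraries. PCR reads without molecular identifiers are not independent molecules, so the intervals and the floor cover counting error only. The functions were tested on simulated data. TMM (edgeR 4.0.16) and DESeq2 1.42.0 size factors over the 15 libraries, other read minimums and other thresholds were tried. The comparison, the 19 miRNA lists and the thresholds were chosen with earlier results of these data known. Named were the 5 markers given for the comparison, the 10 leading names of each library, the 10 highest and 10 lowest ratios among names with at least 200 reads, list members with at least 200 reads and the 10 largest differences in 5p share among hairpins whose 99% intervals are apart, with the marker hairpins. Loci and sequences are those of RefSeq (GRCm38.p6), with GENCODE M21 for overlapping genes.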

Additional observations from a re-analysis of the deposited data

How the results depend on the processing

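No paired analysis was possible because each tissue has 1 library. The count of names at least 4-fold higher in the library labelled smooth muscle was 11, and it was 18 with TMM, 19 without the gut epithelium names in the total (an alternative chosen after seeing the data), 202 with no minimum of reads, 7 with a minimum of 200 reads and 41 at 2-fold. The count in stomach was 25, and it was 19 with TMM, with DESeq2 size factors and without the gut epithelium names, 189 with no minimum, 10 with a minimum of 200 reads, 99 at 2-fold and 7 at 8-fold. Without a minimum most such names have a few reads, so that depth limits them. Counting intervals lay wholly past 4-fold for 8 names on the first side and 17 on the second.

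The log2 ratio of the gut epithelium list was 4.46, and 4.92 with TMM, 4.87 with DESeq2 size factors, 4.58 with the total taken without the 10 most abundant names of each library and 4.99 without its most abundant member. In the same order of settings, with the total without the gut epithelium names before the last, the smooth muscle list had -0.77 and then -0.31, -0.37, -0.66, -0.30 and -0.86. The striated muscle list had -1.28 and then -0.82, -0.88, -1.17, -0.81 and -0.74, and the endocrine list 0.41 and then 0.87, 0.82, 0.53, 0.88 and 0.56. These 4 lists kept their direction throughout. The miR-200 list had -0.18 and then 0.28, 0.22, -0.0654, 0.29 and 0.51, so that it turned in all settings but the total without the 10 most abundant names.

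The lists of miR-148 (0.36 with TMM, 0.31 with DESeq2 size factors, 0.0196 without the 10 most abundant names and 0.37 without the gut epithelium names), of mesenchymal miRNAs (0.38, 0.33, 0.0381 and 0.39) and of broadly expressed miRNAs (0.36, 0.30, 0.0132 and 0.37, and 0.35 without its most abundant member) also turned from just below 0. The leukocyte list turned with TMM (0.31), DESeq2 size factors (0.26) and without the gut epithelium names (0.32). These turns follow from the scaling, which adds the same value to each log2 ratio. Of the 107 named miRNAs 14 changed sign under at least 1 scaling, and none of the 17 that were 4-fold apart did.

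The count of hairpins with 5p shares at least 10 points apart was 5, and 8 with 95% intervals, 12 at 5 points and 0 at 20 points. It was 5 with at least 100 reads in both libraries and 5 without names whose counts equal those of another.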

Other observations

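Several lists that belong to no question of the comparison also differed between the libraries. Of 38 names of the imprinted Dlk1-Dio3 region, 28 had at least 50 reads, 27 of these had a ratio of smooth muscle to stomach below 1, and 1 was 4-fold lower. Over all tested names 36.0% had a ratio above 1 and 6.87% were at least 4-fold higher in stomach. The region took 0.165% of the library labelled smooth muscle and 0.451% of stomach, against 12.5% in the 17-day embryo. miR-127-3p, its most abundant strand here, stood at 0.0565% and 0.202%. Among reads outside the gut epithelium names the list still held 1.97 times as much in stomach (1.87 to 2.06).

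Endothelial miR-126a was higher in the library labelled smooth muscle, at 0.957% against 0.650%, a ratio of 1.47 (1.43 to 1.52), and stomach had the lowest value of the 15 libraries. The neuronal list took 0.230% and 0.172%, against 26.0% in brain. Of its 12 names 11 had at least 50 reads, and miR-137-3p had the highest ratio, 2.64, from 282 and 57 reads. Mesenchymal miR-199 and miR-214 took 1.14% and 1.20%, a direction that turned with each scaling tried. Of these miR-214-3p had a ratio of 0.411, while miR-199a-3p and miR-199b-3p, whose reads the counting may share, both had 1.05.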
